A study of Mus musculus with 4 samples.

Results

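The genes described here are 10 genes linked to endothelial tip cells and vessel sprouting, Esm1, Apln, Aplnr, Plvap, Kcne3, Cd34, Adm, Ramp2, Calcrl and Egfl7. They were taken by gene symbol from 24063 symbols in the count tables, and all 10 were found, on 18 of the 33068 RefSeq transcripts. For each gene the transcript with the most counts over all libraries was used. Endothelial cells (ECs) came from lungs of C57BL6 mice (C57BL6J in the study's methods), 8 weeks old and labelled male, collected on magnetic beads by CD31. One group had undergone left pneumonectomy (PNX), the removal of the left lung, 7 days before, and the control group was sham-operated, which meant opening of the chest without PNX. Each group had 2 libraries, and each library pooled the cells of 2 mice, so that the spread within a group is that between 2 pools. The comparison asks which genes differ in lung ECs while the remaining lung grows.

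A vessel sprout is led by a tip cell, which migrates towards vascular endothelial growth factor (VEGF) and is followed by stalk cells that divide. The genes studied here were tied to tip cells mostly in the retina and in tumours. Apln encodes apelin, a secreted peptide, and Aplnr its receptor. Adm encodes the peptide adrenomedullin, whose receptor is formed by the protein of Calcrl together with a partner, most often that of Ramp2. In the lung several of these genes are also markers of resting capillary cells. Apln marks aerocytes, the large thin capillary ECs of gas exchange, whereas Aplnr and Plvap mark the general capillary ECs.

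The tables held 41367438 to 50952879 counts per library on 1 transcript per gene. Pecam1, which encodes CD31, had 90191 to 91116 normalized counts in the 4 libraries, and its log2 fold change of -0.01 did not pass the test (adjusted p = 0.636). Cdh5, which encodes VE-cadherin, fell with -0.22, but stood at 0.02 when libraries were scaled to 12 endothelial genes. That scaling put Pecam1 at 0.23 and Ptprc at 0.24. Cdh5 and Pecam1 are themselves among the 12 genes, so the scaled value of Cdh5 does not show by itself that it was steady. The fractions also held RNA of other cells. Sftpc, the surfactant gene of alveolar type 2 cells, had 171272 and 170757 normalized counts in sham libraries and 111404 and 110651 after PNX, and Ptprc, which encodes CD45, had 11422 to 11665. Xist, a transcript of the inactive X chromosome, had 29890 to 36875 counts in each library and the Y-linked genes Ddx3y, Kdm5d, Uty and Eif2s3y had 0, so the counts of none of the 4 libraries matched the labelled sex.

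Of the 10 genes, 8 fell and 2 rose in post-PNX ECs when called below an adjusted p of 0.01 (quasi-likelihood test of edgeR, Benjamini-Hochberg adjustment for 16208 genes). That share has to be read against all genes, since 57.1% of the genes tested passed the same threshold, 27.8% of the tested genes being lower and 29.3% higher. The p-values measure only the spread between these pools of mice. That spread was small, with a median SD on the log2 scale over 13402 genes of 0.0299 in sham and 0.0285 in post-PNX libraries. The common dispersion of the fit, the square of the relative spread beyond counting error, was 0.000201. Small p-values from 2 libraries in each group rest on this small spread and do not cover differences between further mice. Esm1 alone also changed by more than 1 on the log2 scale, which 7.56% of the genes tested did, 1.66% lower and 5.9% higher. The median log2 fold change of the 10 genes was -0.41, whereas the median over all genes tested was 0.00. With scaling to 12 endothelial genes, named in the next paragraph, these medians were -0.18 and 0.24. In each of the 10 genes the sham libraries did not overlap the post-PNX libraries, which was also so for 81.2% of the genes tested. In such bulk samples fewer cells of a type and less RNA per cell cannot be told apart.

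**Figure D1:**
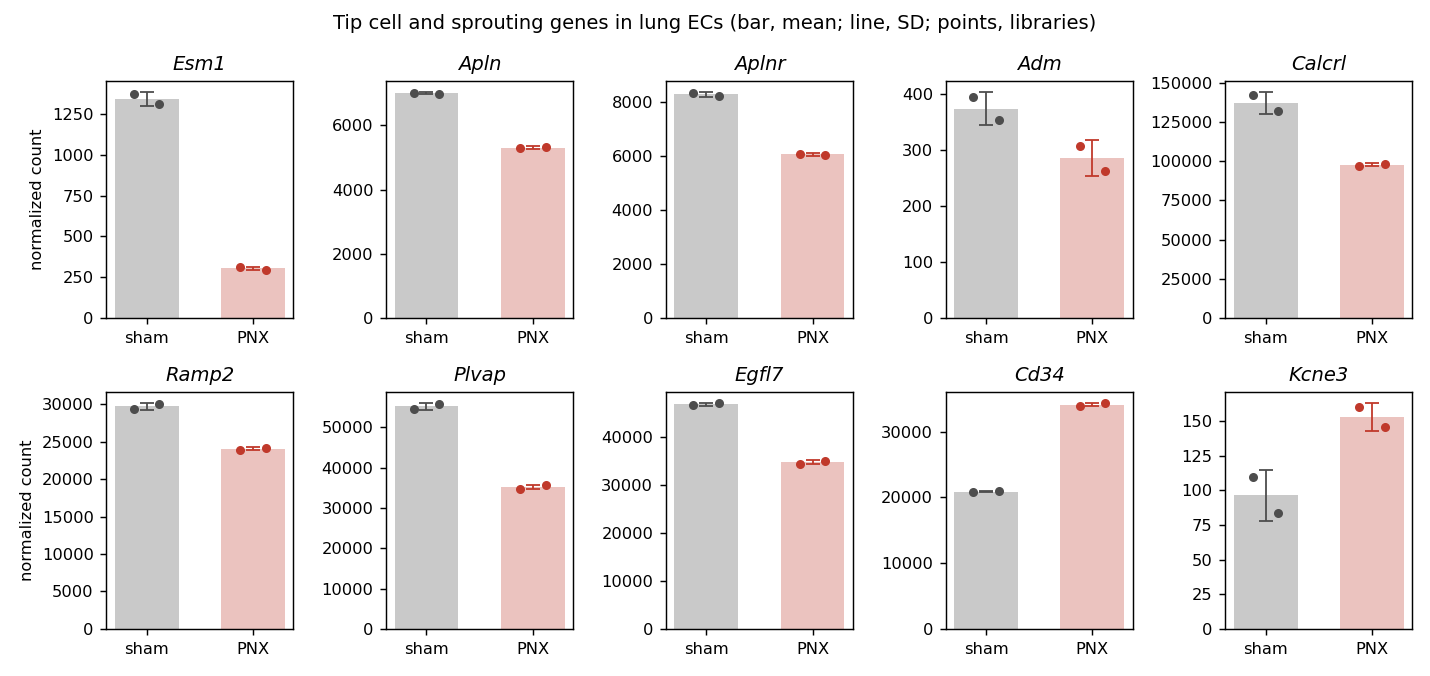
Normalized counts of the 10 genes in sham and post-PNX lung ECs, with bars for the mean of 2 libraries, lines for the SD and points for libraries. Each axis starts at 0. Esm1 drops from about 1339 to 304, 7 other genes drop less, and Cd34 and Kcne3 are higher in both post-PNX libraries.

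The whole endothelial signal has to be set beside these changes. Together, 12 other endothelial genes (Pecam1, Cdh5, Tie1, Tek, Kdr, Eng, Erg, Esam, Emcn, Cldn5, Robo4 and Ecscr) had 514913 and 520677 normalized counts in sham and 438278 and 439569 in post-PNX libraries, with 9 of the 12 lower, 2 higher and a median log2 fold change of -0.22. When libraries were scaled to the sum of these 12 genes, the log2 fold changes of all genes moved up by a median of 0.24, and 9187 genes were then higher and 1546 lower, against 4745 and 4513 with TMM. All 10 genes kept their direction, but Adm no longer passed the test and Ramp2 came close to 0. Esm1 and Plvap fell more than any of the 12 genes, whose log2 fold changes lay between -0.54 and 0.11. Cd34 and Kcne3 rose more than any of the 12, while the other 6 genes of the set were within that range. Of the 12, Kdr, Robo4, Tie1, Tek and Emcn also belong to lists counted below. The scaling holds the summed counts of the 12 genes equal between libraries, so shifts of those lists are partly built in.

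**Figure D2:**
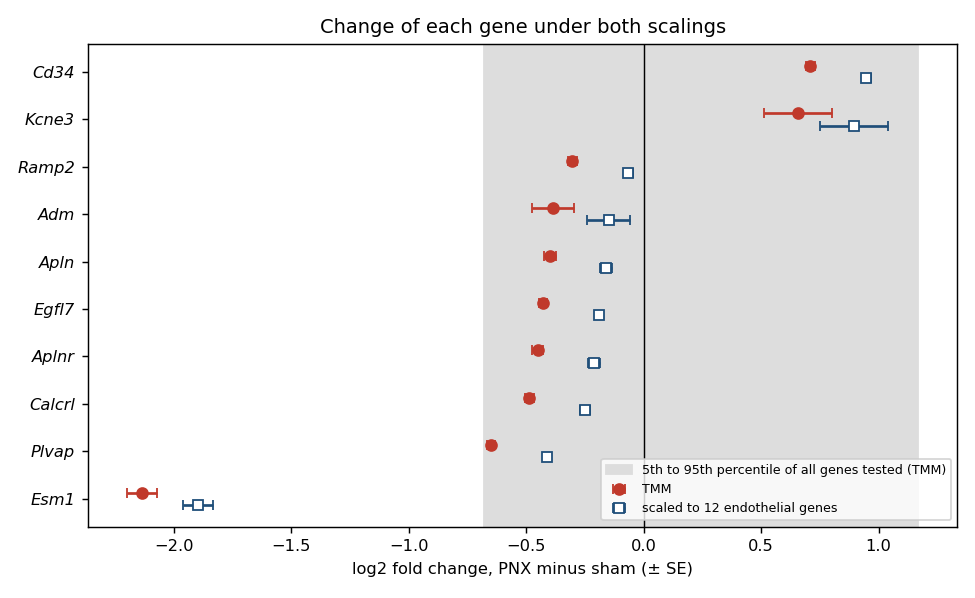
Log2 fold changes (PNX minus sham, ± SE) of the 10 genes with normalization by edgeR's TMM method (filled circles) and with scaling to 12 endothelial genes (open squares). The grey band holds the 5th to 95th percentile of all genes tested, from -0.68 to 1.17, and only Esm1 lies outside it under TMM.

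Esm1 encodes endocan, a proteoglycan secreted by ECs that is induced by VEGF and is widely used as a tip cell marker. The gene lies on chromosome 13 from 113209659 to 113218104 on the plus strand (mm10). The sham libraries had 1369 and 1309 normalized counts, and the post-PNX libraries had 312 and 296. Both post-PNX libraries were thus far below both sham libraries. The log2 fold change was -2.14 (SE 0.063, adjusted p = 2.2e-38), a fall of 77.2%. Among the 16208 genes tested, 16 had a lower log2 fold change. With scaling to the 12 endothelial genes the log2 fold change was -1.90.

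Because Esm1 fell most and Cd34 and Kcne3 moved the other way, the 250 bases before their annotated start (RefSeq, GRCm38.p6) are shown, read 5′ to 3′ on the gene's strand. For Kcne3, which has 2 windows in the promoter table, the more upstream one is given, whose start lies inside the transcript that was counted. Capitals mark matches on either strand to CATTCC, the core bound by TEAD factors, to ACGTG, the core bound by hypoxia-inducible factors, or to CCGGAA, an ETS core. On the other strand CATTCC reads GGAATG, which shares GGAA with CCGGAA.
Esm1, chr13:113209409-113209658, plus strand: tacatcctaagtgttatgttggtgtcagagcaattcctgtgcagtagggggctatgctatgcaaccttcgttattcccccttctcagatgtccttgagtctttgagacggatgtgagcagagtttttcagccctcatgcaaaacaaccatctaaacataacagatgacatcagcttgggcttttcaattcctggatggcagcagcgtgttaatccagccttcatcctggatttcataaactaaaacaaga
Cd34, chr1:194938571-194938820, plus strand: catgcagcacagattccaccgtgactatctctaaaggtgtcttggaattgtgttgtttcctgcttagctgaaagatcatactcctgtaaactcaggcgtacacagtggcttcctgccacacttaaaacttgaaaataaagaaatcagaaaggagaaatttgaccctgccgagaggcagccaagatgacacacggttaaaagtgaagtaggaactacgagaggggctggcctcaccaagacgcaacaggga
Kcne3, chr7:100176420-100176669, plus strand: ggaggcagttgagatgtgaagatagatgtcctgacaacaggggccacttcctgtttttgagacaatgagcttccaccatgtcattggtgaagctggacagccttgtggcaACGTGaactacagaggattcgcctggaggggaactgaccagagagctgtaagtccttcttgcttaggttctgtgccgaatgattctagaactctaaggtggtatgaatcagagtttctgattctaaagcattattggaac
The table of promoters held 10 such windows for 7 of the 10 genes. ACGTG was found in 1 of them, that of Kcne3, and CATTCC and CCGGAA were found in none. The match lies 140 bases before the annotated start used for that window, but inside the gene, which begins at 100176507. Over 32851 promoter windows of the same length, 12.6% held CATTCC, 16.6% ACGTG and 12% CCGGAA. A match or its absence in this window is a description only.

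Apelin and its receptor fell together. Apln, on chromosome X from 48025146 to 48034853 on the minus strand, had 7023 and 6976 normalized counts in sham and 5290 and 5338 in post-PNX ECs, a log2 fold change of -0.40 (SE 0.025, adjusted p = 5.5e-22). Aplnr, on chromosome 2 from 85136360 to 85139923, had 8350 and 8240 in sham and 6101 and 6038 after PNX, a log2 fold change of -0.45 (SE 0.024, adjusted p = 1.9e-25). In both genes the libraries of a group lay close together and apart from the other group. Scaled to the 12 endothelial genes, the log2 fold changes were -0.16 for Apln and -0.21 for Aplnr, and both passed the test (adjusted p = 1.2e-06 and 2.5e-09). Per length the ligand and its receptor were at almost the same level. The FPKM of Apln divided by that of Aplnr in the same library was 0.952 and 0.958 in sham and 0.982 and 1.00 in post-PNX ECs. On the log2 scale this ratio differed by 0.05 between groups, above the SDs of 0.007 and 0.020 within them (exact permutation test, two-sided, p = 0.333, the smallest that 2 against 2 libraries can give).

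Per length, transcripts of the adrenomedullin receptor were far more abundant than those of the peptide, and Calcrl and Ramp2 both fell after PNX. Calcrl, which encodes the calcitonin receptor-like receptor and lies on chromosome 2 from 84330626 to 84425405 on the minus strand, had 141813 and 132222 normalized counts in sham and 97138 and 98416 in post-PNX ECs. The sham libraries differed more from each other than the post-PNX libraries did, but the groups were far apart. The log2 fold change was -0.49 (SE 0.018, adjusted p = 2.2e-33), a fall of 28.6%. Ramp2 encodes the partner that makes this receptor bind adrenomedullin and lies on chromosome 11 from 101246334 to 101248250. It had 29415 and 30035 normalized counts in sham and 23957 and 24197 after PNX, a log2 fold change of -0.30 (SE 0.018, adjusted p = 9.5e-23). Scaled to the 12 endothelial genes, Calcrl stayed lower at -0.25, and the change of Ramp2 shrank to -0.07 (adjusted p = 0.00144).

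Adm, on chromosome 7 from 110627657 to 110629820, was low, and its raw counts were 435 and 346 in sham and 313 and 236 in post-PNX libraries. Its normalized counts of 394 and 353 in sham were above the 308 and 263 after PNX, but the gap between groups was about as wide as that within each. The log2 fold change was -0.39 (SE 0.089, adjusted p = 1.4e-04). This call did not hold with scaling to the 12 endothelial genes (log2 fold change -0.15, adjusted p = 0.146), with DESeq2 (adjusted p = 0.0157), without the first sham library (-0.30, adjusted p = 0.0139) or without the second post-PNX library (-0.28, adjusted p = 0.0144). Over all alternatives tried, the log2 fold change of Adm lay between -0.51 and -0.15.

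Ratios within a library do not depend on how libraries are scaled. Ramp2 had 1.13 and 1.23 times the FPKM of Calcrl in sham and 1.34 and 1.34 times in post-PNX ECs, so the partner fell less than the receptor. The difference of 0.18 on the log2 scale compares with an SD of 0.093 within sham and 0.003 after PNX, and it was 0.12 without the first sham library and 0.25 without the second. Ramp3, another partner of the same receptor, rose with a log2 fold change of 0.28 (adjusted p = 4.4e-05), and its FPKM relative to Ramp2 went from 0.0152 and 0.0153 to 0.0230 and 0.0227 or 0.58 higher on the log2 scale. Apln relative to Esm1 went from 3.43 and 3.56 to 11.3 and 12.03, a 3.34-fold higher ratio. For each of these 3 ratios the exact permutation p was 0.333. Adm relative to Calcrl differed by 0.10 on the log2 scale and overlapped between groups (exact permutation p = 0.667), and Adm relative to Apln by 0.01 (p = 1.00, exact permutation test). With the ratio of each of the 10 genes to Pecam1, 16 ratios were compared, and an adjustment for that number could only raise p-values that cannot pass.

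**Figure D3:**
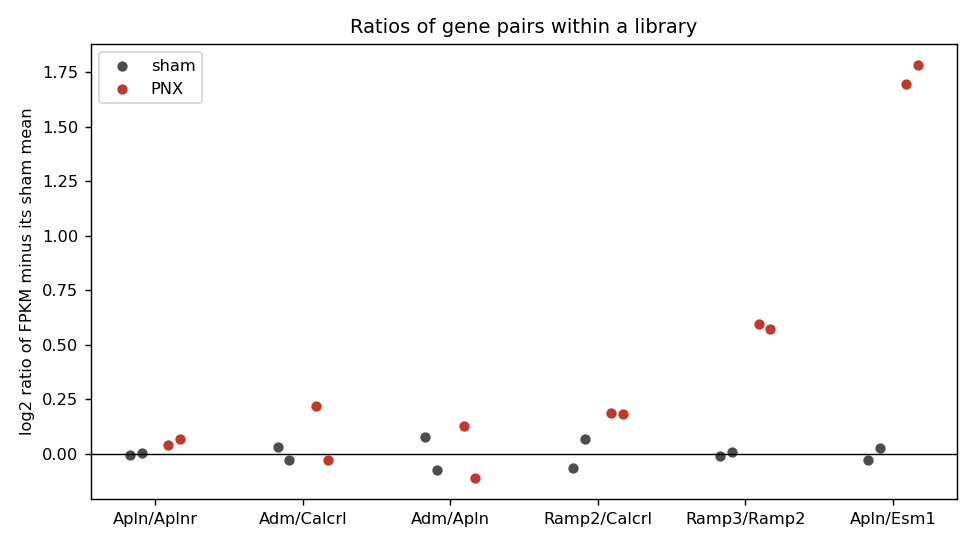
Log2 ratio of FPKM of 2 genes in the same library, minus the mean of the sham libraries for that pair, with a point per library. The post-PNX libraries stand apart for Apln/Esm1 (1.74 higher), Ramp3/Ramp2 (0.58 higher), Ramp2/Calcrl (0.18 higher) and, narrowly, Apln/Aplnr (0.05 higher). The groups overlap for Adm/Calcrl and Adm/Apln.

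Plvap encodes the protein of the diaphragms that span the openings of caveolae and fenestrae in ECs. It lies on chromosome 8 from 71497753 to 71511806 on the minus strand. It had 54657 and 55829 normalized counts in sham and 34806 and 35655 in post-PNX ECs, a log2 fold change of -0.65 (SE 0.017, adjusted p = 1.3e-40). The fall was 36.2%, the second largest of the set, and it was larger than that of every one of the 12 endothelial genes. With scaling to those genes the log2 fold change was -0.41. Relative to Pecam1 in the same library, the FPKM of Plvap was 0.987 and 1.00 in sham and 0.633 and 0.645 after PNX.

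Egfl7 encodes a secreted protein of the endothelial matrix that guides vessel tube formation, and the gene hosts the endothelial microRNA miR-126. It lies on chromosome 2 from 26581083 to 26592682. It had 46630 and 47000 normalized counts in sham and 34420 and 35061 in post-PNX ECs, a log2 fold change of -0.43 (SE 0.017, adjusted p = 1.9e-31). The 4 transcripts listed for Egfl7, which share most of their reads, gave log2 fold changes between -0.43 and -0.41 in a fit of all transcripts. The mature microRNA was not measured here. Its sequence (RefSeq, GRCm38.p6, chr2:26591402-26591423, plus strand) is given because it lies within the gene that fell, with the seed, bases 2 to 8, in capitals.
mmu-miR-126a-3p: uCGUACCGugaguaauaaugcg
Reads counted on the hairpin of Mir126a were few, 114 and 71 in sham and 54 and 45 after PNX (log2 fold change -0.78, adjusted p = 3.7e-04), a call that was lost with scaling to the 12 endothelial genes (-0.54), with DESeq2 and without the first sham library. Those on Mir126b, annotated within the same bases on the opposite strand, were 88 and 57, then 49 and 39 (adjusted p = 0.0104). Hairpins on opposite strands thus had like counts, so these counts do not separate the strands. The relative Egfl6 fell with a log2 fold change of -0.40, while Egfl8 (-0.06) and the neighbouring gene Agpat2 (0.04) did not pass the test. With scaling to the 12 endothelial genes, Egfl6 (-0.16) was the 1 gene of this list called lower and Agpat2 (0.28) the 1 called higher.

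Cd34 was one of the 2 genes that rose. It encodes a sialomucin on the surface of capillary ECs and tip cell filopodia, which fibroblasts, mast cells and blood progenitors also carry. The gene lies on chromosome 1 from 194938821 to 194961292. It had 20791 and 20909 normalized counts in sham and 33919 and 34262 in post-PNX ECs, a log2 fold change of 0.71 (SE 0.018, adjusted p = 9.4e-42) or 1.64-fold. The groups were far apart, and scaling to the 12 endothelial genes raised the log2 fold change to 0.95. Both Cd34 transcripts had nearly the same counts, and their log2 fold changes were 0.71 and 0.72. An antisense gene, Gm16897, overlaps exons of Cd34 and had 15.1% to 15.6% as many counts as Cd34 in each library, with a log2 fold change of 0.68. Gm16897 lies on the opposite strand, and whether the counting used strand is not given. Reads of these genes may therefore not have been told apart where they overlap. Taking all counts of Gm16897 away from Cd34 left 17570 and 17651 normalized counts in sham and 28730 and 29081 after PNX. The log2 ratio of group means was then 0.71. Since the share of Gm16897 was nearly the same in every library, this step could hardly move the ratio and is no check on the rise.

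Kcne3, the other gene that rose, encodes a small accessory subunit of potassium channels. It lies on chromosome 7 from 100176507 to 100184869 and had the lowest counts of the set, 121 and 82 in sham and 163 and 131 in post-PNX ECs. The normalized counts were 110 and 83.6 in sham and 160 and 146 after PNX, so the groups did not overlap but the sham libraries differed widely. The log2 fold change was 0.66 (SE 0.143, adjusted p = 5.8e-05). With 1 library at a time removed it lay between 0.49 and 0.88, and with DESeq2 the adjusted p was 0.0103. The 5 transcripts of Kcne3 gave log2 fold changes between 0.66 and 0.74. An antisense gene annotated over Kcne3 exons, Gm34821, was not listed in the count tables under that symbol and could not be analysed.

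Markers of other cell types changed too, among them fibroblasts and mast cells, which can carry Cd34. Of 8 fibroblast markers 7 rose, led by Lum (log2 fold change 4.26) and Col1a1 (2.34), and Pdgfra fell with -0.23 under TMM and stood at 0.01 with scaling to the 12 endothelial genes. For the whole list the summed normalized counts were 63476 to 64034 in sham and 228580 to 230042 in post-PNX libraries. The mast cell markers were low, at 313 to 324 in sham and 963 to 983 after PNX, and Tpsb2, Cma1, Mcpt4 and Cpa3 rose, while Fcer1a did not pass the test (0.75, adjusted p = 0.0133). All 6 mesothelial markers rose, led by Wt1 (2.68) and Msln (1.97), with sums going from 9707 to 9728 in sham to 22012 to 22122 after PNX, as did all 7 macrophage markers, led by C1qb (2.98) and C1qc (2.96), from 22004 to 22337 in sham to 51714 to 51914. None of the markers in these 4 lists was at 0 in all libraries. The part of these cells in the rise of Cd34 and Kcne3 was not tested. Of 7 epithelial markers 5 fell, led by Sftpa1 (-0.71) and Sftpc (-0.62), and Krt8 rose with 0.11. With scaling to the 12 endothelial genes 4 were lower and 2 higher. The sums were 272976 to 274464 in sham and 182975 to 183169 after PNX. The part of epithelial cells in the falls among the 10 genes was not tested either.

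Compared per length, the 10 genes spanned a wide range of levels. In sham ECs the order by FPKM was Ramp2 (463 ± 7.00, SD, n = 2), Egfl7 (458 ± 2.72), Calcrl (393 ± 19.3), Plvap (372 ± 5.72), Cd34 (108 ± 0.471), Aplnr (31.6 ± 0.286), Apln (30.2 ± 0.133), Esm1 (8.65 ± 0.271), Adm (3.67 ± 0.286) and Kcne3 (0.984 ± 0.187). The libraries of Ramp2 and Egfl7 overlapped, and all other neighbours were separate. After PNX the order was the same except that Esm1 (1.98 ± 0.0775) fell below Adm (2.82 ± 0.317). In post-PNX ECs the libraries of Aplnr and Apln overlapped, at 23.3 ± 0.213 and 23.1 ± 0.108 FPKM. Cd34 kept its place, but its FPKM of 178 ± 0.950 came much closer to that of Plvap, 239 ± 3.64.

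**Figure D4:**
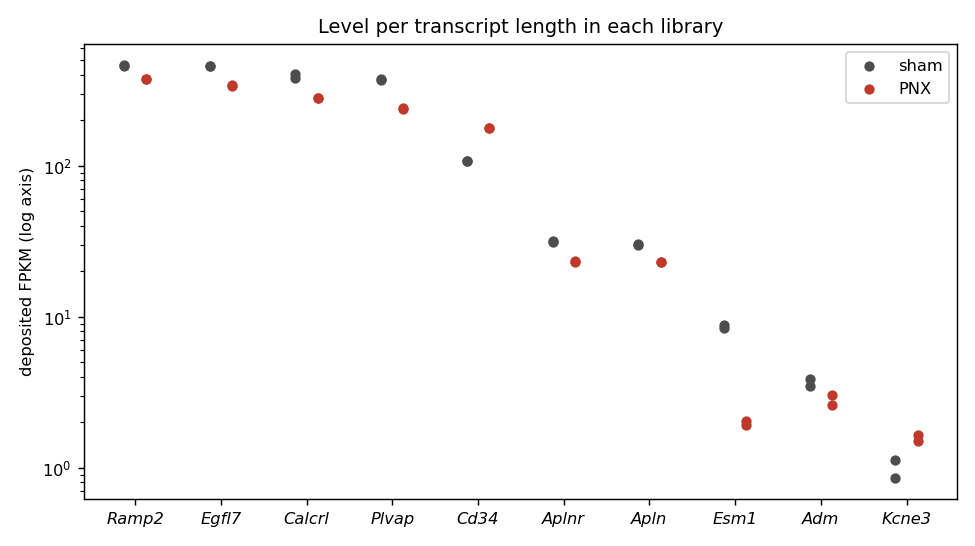
Deposited FPKM of the 10 genes in each library on a log axis, sham in grey and post-PNX in red, ordered by the level in sham ECs. Ramp2, Egfl7, Calcrl and Plvap are at 236 FPKM or more in all libraries, and Esm1 goes from above to below Adm after PNX.

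Around these genes, the other genes of the apelin and adrenomedullin pathways moved in both directions. Of 12 listed, 10 could be tested, and 5 rose and 3 fell, with a median log2 fold change of 0.10. The largest rises were those of Calca and Calcb, which encode calcitonin gene-related peptides that also act through the protein of Calcrl. Calca went from 19.0 and 22.4 normalized counts in sham to 514 and 496 after PNX (log2 fold change 4.61, adjusted p = 8.9e-37), and Calcb from 21.7 and 15.3 to 177 and 172 (3.21, adjusted p = 5.4e-22). Ramp1, the partner that makes the receptor bind these peptides, fell with a log2 fold change of -0.37. Gnas, the gene of the stimulatory G protein and the most abundant of the list, rose with 0.18. Apela, which encodes the second ligand of the apelin receptor, and Adm2 were too low to test, with at most 3.34 and 6.69 normalized counts in a library. After scaling to the 12 endothelial genes, 7 genes of this list were higher and none lower, and Ramp1 stood at -0.13.

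Other genes known from tip cells did not share 1 direction. Of 20 listed, 7 rose and 11 fell, with a median of -0.19, and scaling to the 12 endothelial genes turned this to 9 higher and 7 lower. Mmp14, a membrane protease (log2 fold change 1.62), and Fscn1, which bundles actin in filopodia (1.45), rose most. Markers of fibroblasts and macrophages rose too, as given above, and the part of other cells in these rises was not tested. Igfbp3, a binding protein of insulin-like growth factors, fell from 5993 and 6013 normalized counts to 1849 and 1811 (-1.71, adjusted p = 6.3e-50), and Trp53i11 fell by 0.50 on the log2 scale. Kdr, the main VEGF receptor and the most abundant of the list, had a log2 fold change of -0.40, close to that of Apln. On the stalk and Notch side, 9 of 13 genes fell and none rose, with the decoy VEGF receptor Flt1 (-0.53) and the angiopoietin receptor Tek (-0.50) falling most and the abundant Vwf by 0.07, but scaling to the 12 endothelial genes turned this to 8 higher and 5 lower, with Vwf at 0.17.

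Among 14 genes of the VEGF and hypoxia response 7 rose and 4 fell (median 0.17). Scaling to the 12 endothelial genes gave 9 higher and 3 lower (median 0.41). Vegfa, which encodes a VEGF, fell from 36914 and 38215 normalized counts to 28567 and 29182. Its log2 fold change was -0.38, and -0.14 with that scaling. Egln3, an oxygen-sensing hydroxylase induced by hypoxia, rose from 90.6 and 110 normalized counts to 441 and 452 (log2 fold change 2.16, adjusted p = 9.5e-27), and the glycolytic gene Pgk1 rose by 0.58. Epas1, which encodes the hypoxia factor abundant in lung ECs, fell from 259878 and 261400 to 169950 and 174131 (-0.60), and Bnip3 fell with -0.55. Of 10 caveola and sialomucin genes, the company of Plvap and Cd34, 4 rose and 4 fell (median 0.04, and 7 higher and 1 lower with scaling to the 12 endothelial genes), led by Cavin3 (0.68) and Podxl2 (0.29) upwards and by Cav2 (-0.61) and the abundant Cav1 (-0.27) downwards. Of 6 tested channel partners and relatives of Kcne3, 3 rose and 2 fell (median 0.29). With scaling to the 12 endothelial genes 4 were higher and 1 lower. Kcne4 rose by 1.00 and Kcnh2 by 0.49, while Kcne2 fell with -0.73. Kcnq1, the best known partner, fell with -0.15 under TMM and stood at 0.09 with scaling to the 12 endothelial genes.

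**Figure D5:**
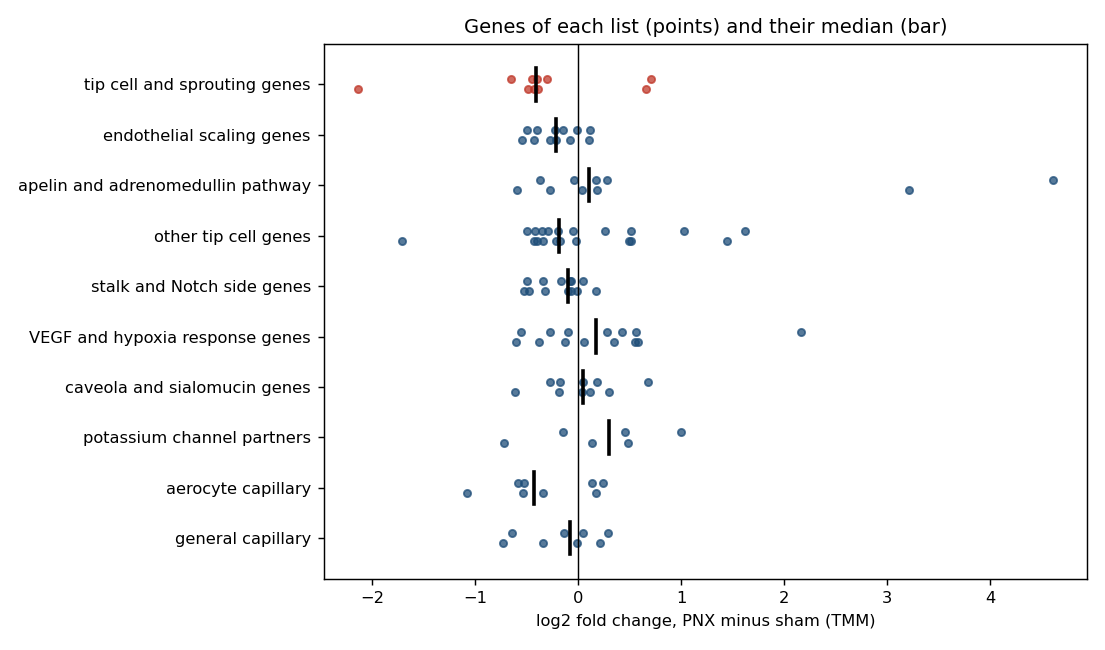
Log2 fold changes (PNX minus sham, TMM) of the tested genes in each list, with a point per gene and a bar at the median. The 10 tip cell and sprouting genes have a median of -0.41 with Esm1 far to the left, and the apelin and adrenomedullin list reaches to 4.61 with Calca.

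Since Apln marks aerocytes and Aplnr and Plvap mark general capillary ECs, other markers of both were counted. Of 8 aerocyte markers 5 fell and 3 rose, with a median of -0.43. Cyp4b1 (-1.08), Ednrb (-0.58) and the abundant Emp2 (-0.53) fell, whereas Car4 (0.24) and Tbx2 (0.17) rose. Of 8 general capillary markers 4 fell and 3 rose, with a median of -0.08, which turned to 3 lower and 5 higher with scaling to the 12 endothelial genes, with Ptprb (-0.73) and Gpihbp1 (-0.64) falling most and Gucy1a1 (0.29) and Sema3c (0.21) rising. Apln at -0.40, Aplnr at -0.45 and Plvap at -0.65 were within the range of either list. Both ranges are wide and also hold the 25th and 75th percentiles of all genes tested, -0.21 and 0.23. Lying within them therefore does not tie these genes to either list. All 8 proliferation markers rose, led by Cdk1 (3.41) and Ccnb1 (3.40), from sums of 7302 and 7423 in sham to 32369 and 32953 after PNX.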

How the data were processed

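Libraries of CD31-selected lung ECs, 2 sham and 2 post-PNX, were made with a stranded mRNA kit and sequenced as paired ends. The submitters' processing notes name STAR and mm10; the counting program and whether it used strand are not given in the sources used here. The authors deposited raw counts per RefSeq transcript, and beside them FPKM and TPM values. The deposited FPKM use the total over all transcripts. FPKM served for levels per length and for ratios, and TPM values were not used.

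The transcripts listed for Cd34, Egfl7 and Kcne3 share most of their reads, so the transcript with the most counts stood for each gene. Genes were filtered with filterByExpr (16208 kept) and normalized with TMM in edgeR 4.0.16 (R 4.3.3), and groups were compared by the quasi-likelihood test without covariates, at an adjusted p of 0.01. Normalized counts are scaled to the mean library size, and the SE is the log2 fold change divided by the square root of F. The fit was tested on simulated data. Alternatives were other scalings and filters, DESeq2 1.42.0, glmTreat, sums over transcripts, a replicate block and leaving out each library. Precision from depth covers counting error only.

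The 10 genes and the gene lists were chosen with earlier results of these data known. The genes named are the 10 genes, the sort and sex markers, the genes of the ratios and, from each list, the 2 largest rises, the 2 largest falls and the most abundant gene at most, or any gene of a list of up to 5 genes. All listed genes but Kcne5 were matched, 5 of them through another symbol of the RefSeq gene. One gene that this rule would name is not reported here.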

Additional observations from a re-analysis of the deposited data

How the results depend on the processing

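Across the alternatives tried, the 10 genes gave 128 values, and all 128 kept their direction. In 123 of them the side of the threshold was kept as well, and the 5 others concern Adm and Kcne3, as given above. With DESeq2's Wald test 1 gene of the set in place of 2 was higher past the threshold, and 7 in place of 8 were lower, while over all genes tested 3497 were higher and 3275 lower, against 4745 and 4513 with edgeR. Scaling to the 12 endothelial genes gave 9187 higher and 1546 lower genes over the whole table. Beyond a log2 fold change of 1, there were 957 higher and 269 lower genes, 1288 and 92 with that scaling, and 604 and 39 with glmTreat, under which Esm1 was still called. Leaving out each library in turn, the log2 ratio of Adm to Calcrl differed between groups by -0.03 (-0.027, without PNX replicate 1) to 0.22, and that of Adm to Apln by -0.11 (without PNX replicate 1) to 0.13, with -0.07 without sham replicate 2, so both changed sign. Without sham replicate 1, and with DESeq2, 1 gene around Egfl7 in place of 2 passed, the call of Mir126a being lost, as it was with the endothelial scaling, under which Agpat2 was called higher. With DESeq2, 3 in place of 5 channel partners passed. The lymphatic list had 5 called genes in place of 3 with the endothelial scaling, and the adipocyte list 2 in place of 4 with a mean of at least 50 counts. The replicate numbers of the titles do not mark shared mice, and deviations of libraries with the same number had a correlation of 0.02 over 13402 genes. With the replicate number as a block, 10 of the 10 genes passed the threshold, 2 higher and 8 lower, and 4824 genes of the whole table were higher and 4617 lower. Depth limits Adm and Kcne3, which had 82 to 435 counts in a library.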

Other observations

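Beyond the capillary markers, other endothelial lists moved unevenly. Of 6 venous markers 5 rose and 1 fell (median log2 fold change 0.35), and with scaling to the 12 endothelial genes all 6 were higher. Ackr1, a chemokine-binding receptor of venules, had 41.7 and 57.1 normalized counts in sham and 132 and 154 in post-PNX ECs (1.54, adjusted p = 8.2e-12), and Selp, which encodes P-selectin, rose with 1.14. Of 7 arterial markers 3 rose and 4 fell (median -0.11, and 4 higher and 2 lower with scaling to the 12 endothelial genes), with Dkk2 (1.13) and Gja4 (0.61) rising and Efnb2 (-0.63) and Hey1 (-0.47) falling. Of 5 lymphatic markers tested 2 rose and 1 fell. Prox1, the factor that defines lymphatic ECs, rose with a log2 fold change of 0.43 and Pdpn with 0.39, while Lyve1, which lung capillary cells and macrophages also carry, fell with -1.14.

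Of 7 pericyte and smooth muscle markers 6 rose and none fell, led by Cspg4 (1.03) and Acta2 (0.54). Of 4 platelet markers 3 rose, led by Pf4 (1.34) and Itga2b (0.38), with Ppbp at 0.26, while Gp9 did not pass the test (0.20, adjusted p = 0.0807, edgeR). Of 4 adipocyte markers tested, Plin1, Cfd and Adipoq rose from at most 9 counts in a sham library, and Cidec fell with -0.21 under TMM and stood at 0.03 with scaling to the 12 endothelial genes. Of 5 markers shared by leukocytes 3 rose and 1 fell, with Cd53 (0.30), Cd52 (0.26) and Laptm5 (0.16) rising, and Coro1a fell with -0.14 under TMM and stood at 0.10 with scaling to the 12 endothelial genes.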
